A study of Mus musculus with 12 samples.

Results

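The genes described here are 26 genes of cholesterol synthesis, of the control of that synthesis by the transcription factor SREBP2, and of sterol transport and uptake. They were taken by name from the 57180 genes of the liver table. Each had 1 row, and all 26 were among the 19355 genes that passed the filter on low counts. By role they comprise 8 genes of the mevalonate arm (Acat2, Hmgcs1, Mvk, Pmvk, Mvd, Idi1, Fdps and Ggps1), 3 genes from farnesyl diphosphate to lanosterol (Fdft1, Sqle and Lss), 9 genes from lanosterol to cholesterol (Cyp51, Tm7sf2, Lbr, Msmo1, Nsdhl, Hsd17b7, Ebp, Sc5d and Dhcr7), 4 genes of SREBP2 control (Srebf2, Scap, Insig1 and Insig2) and 2 genes of sterol transport and receptor turnover (Stard4 and Mylip). The first 3 classes are called the 20 synthesis enzymes below.

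The livers came from 12 mice of a Cockayne syndrome model, with 3 female and 3 male mice of each genotype. All 12 mice lacked Csa (the gene Ercc8, which acts in transcription-coupled DNA repair), and all had received a self-complementary AAV9 vector carrying human CSA under the ubiquitous chicken β-actin promoter, injected into the brain ventricles in the first days of life. KO livers were taken when the mouse reached its humane endpoint, and Het livers (Csa-/- Xpa+/-) came from littermates of matched age without signs of disease. Genotype, disease state and body condition at sampling therefore cannot be told apart. The series and the study's methods write the KO genotype as Csa-/- and Xpa+/+. The study's results text describes these mice as also lacking Xpa, a damage-recognition protein of nucleotide excision repair. Livers are named by genotype, sex (F or M) and mouse number. Ages of single mice were not among the labels.

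Cholesterol is built from acetyl-CoA. The mevalonate arm makes isoprenoid units, squalene synthase and squalene epoxidase make and oxidise squalene, lanosterol synthase closes the rings, and a series of demethylations, reductions and isomerisations then turns lanosterol into cholesterol. When the endoplasmic reticulum is poor in sterol, the escort protein SCAP carries SREBP2 to the Golgi, where it is cut to release a transcription factor for most of these genes. When sterol is plentiful, INSIG proteins hold SCAP back. Hepatocytes are a main site of this synthesis, and the genes are known for moving together.

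Promoter sequences are shown for the 5 genes that differed between KO and Het livers over both sexes, and for Hmgcs1, the only one of the matched promoters that held the sterol regulatory element searched for. They are the 250 bases before the transcription start from RefSeq on the build GRCm38.p6, which is an older build than the one the counts were made on. Each is written 5′ to 3′ along the gene's own strand. Capitals mark the motifs found on either strand: the sterol regulatory element TCACNCCAC, the NF-Y box (CCAAT), the GC box (GGGCGG) and the E box (CACGTG). A motif on the opposite strand appears as its reverse complement. The windows are chr13:119690101-119690350 (plus strand) for Hmgcs1, chr5:114444019-114444268 (plus strand) for Mvk, chr10:76531355-76531604 (plus strand) for Lss, chrX:8193513-8193762 (minus strand) for Ebp, chr9:42264301-42264550 (minus strand) for Sc5d and chr15:82147019-82147268 (plus strand) for Srebf2.
Hmgcs1: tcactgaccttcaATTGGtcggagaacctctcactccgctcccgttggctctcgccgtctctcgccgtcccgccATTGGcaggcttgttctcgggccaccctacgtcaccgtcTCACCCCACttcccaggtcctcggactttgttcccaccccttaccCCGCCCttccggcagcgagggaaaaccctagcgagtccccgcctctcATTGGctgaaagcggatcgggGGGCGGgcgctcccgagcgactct
Mvk: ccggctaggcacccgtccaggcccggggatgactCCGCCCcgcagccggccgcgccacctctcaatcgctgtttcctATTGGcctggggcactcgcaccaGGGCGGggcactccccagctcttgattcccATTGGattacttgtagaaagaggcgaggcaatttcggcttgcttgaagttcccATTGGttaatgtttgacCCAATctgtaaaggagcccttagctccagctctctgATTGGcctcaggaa
Lss: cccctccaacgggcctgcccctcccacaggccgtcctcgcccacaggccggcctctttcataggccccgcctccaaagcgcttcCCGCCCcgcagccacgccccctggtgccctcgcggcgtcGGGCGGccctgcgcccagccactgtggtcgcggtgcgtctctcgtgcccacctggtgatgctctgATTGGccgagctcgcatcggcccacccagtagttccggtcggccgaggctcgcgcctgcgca
Ebp: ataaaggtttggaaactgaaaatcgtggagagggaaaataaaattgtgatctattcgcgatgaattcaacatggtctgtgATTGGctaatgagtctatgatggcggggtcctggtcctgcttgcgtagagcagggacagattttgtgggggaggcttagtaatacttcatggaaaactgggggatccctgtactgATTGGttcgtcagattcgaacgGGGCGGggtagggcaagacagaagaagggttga
Sc5d: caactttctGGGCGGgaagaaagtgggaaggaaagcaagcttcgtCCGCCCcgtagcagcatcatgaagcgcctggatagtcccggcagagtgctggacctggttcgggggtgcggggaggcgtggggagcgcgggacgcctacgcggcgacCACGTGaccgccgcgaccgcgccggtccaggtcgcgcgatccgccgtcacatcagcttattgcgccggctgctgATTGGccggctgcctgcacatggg
Srebf2: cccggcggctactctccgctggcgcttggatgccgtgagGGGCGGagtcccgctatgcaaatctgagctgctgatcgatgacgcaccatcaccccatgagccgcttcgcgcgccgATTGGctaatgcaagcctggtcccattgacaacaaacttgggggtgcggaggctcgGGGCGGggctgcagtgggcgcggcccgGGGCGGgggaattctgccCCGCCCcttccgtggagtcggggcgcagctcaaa

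Promoters were matched for 22 of the 26 genes, and Sqle, Fdft1, Fdps and Stard4 had no entry. Over the 300 bases from 250 before to 50 after the start, the sterol regulatory element was found in 1 of 22, in the Hmgcs1 promoter as TCACCCCAC at -137 to -129. It was present in 1.46% of the 12037 tested genes that had an entry. The NF-Y box was in 20 of 22 promoters (90.9%) against 42.7% of those tested genes, and the GC box also in 20 of 22, against 63.5%. The E box was in 5 of 22 promoters (22.7%), those of Hsd17b7, Sc5d, Dhcr7, Scap and Insig1, against 11.1%. The Mvk promoter held 5 NF-Y boxes, and those of Lss, Srebf2 and Sc5d held 1 each within the window, while the Ebp promoter held 2. The 3 genes that were higher in KO livers and the 2 that were lower thus all carried an NF-Y box and a GC box and none the sterol element in these letters. A match is a description of the letters and not of a bound site.

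Each liver held between 30044781 and 43634046 estimated counts after rounding. Values below are CPM, counts brought to a common library total after TMM scaling. TPM values, which also divide by transcript length, are named where they are used. Xpa, the check of the genotype labels, had 0.990 to 1.82 CPM in KO livers and 3.13 to 6.32 CPM in Het livers (log2 fold change -1.84, SE 0.167, adjusted p = 5.74e-05), so the level in the KO livers was below that in every Het liver. The direction is that of the description as lacking Xpa, not that of the written Xpa+/+. The Csa gene Ercc8 was disrupted in both groups, yet its transcript was counted in all livers, at 14.7 to 34.3 CPM in KO and 5.12 to 8.76 CPM in Het livers (log2 fold change 1.61, SE 0.175, adjusted p = 0.000189). Hepatocyte markers were present in every liver, with a sum over 6 genes of 66531 to 123768 CPM in KO and 50277 to 72639.5 CPM in Het livers. KO_F_108 and KO_M_122 stood apart within their groups for the cholesterol genes, and results that rest on them are given with and without them. Both were picked after these values were seen, so results without them are descriptions only.

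In Het livers the 26 genes spanned a wide range of level per transcript length. Highest were Insig1 (median 122.9 TPM, range 68.6 to 183), Sc5d (median 122.1 TPM, range 86.8 to 182), Fdps, which makes farnesyl diphosphate (median 104 TPM, range 60.6 to 129.7), and Ebp (median 81.1 TPM, range 72.5 to 101). The ranges of these 4 genes overlapped, so their order is not fixed. Lowest were Mylip (median 2.02 TPM), Ggps1 (median 3.32 TPM) and Lbr (median 3.68 TPM). In KO livers Sc5d had a median of 70.7 TPM and Insig2 a median of 110.3 TPM, where the Het median of Insig2 was 56.0 TPM.

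Over both sexes, lanosterol synthase (Lss), mevalonate kinase (Mvk) and SREBP2 itself (Srebf2) were higher in KO livers, and the late enzymes Sc5d and Ebp were lower. The other 21 genes did not pass the test. The share called was 3 of 26 higher and 2 of 26 lower, beside 11.4% higher and 10.3% lower among all genes tested. These 26 genes, which are not the whole pathway, were thus called about as often as all genes tested. The study reported a hallmark set of cholesterol homeostasis as overrepresented among the genes upregulated in KO livers. Its gene set and its test were not those used here, so the 2 results do not measure the same thing. At an unadjusted p under 0.05 there were 6 of 26 genes (23.1%), beside 35.5% of all genes tested. The log2 fold changes were positive in 13 genes and negative in 13, with a median of 0.06 beside 0.01 over all genes tested. By class, the median was 0.30 for the mevalonate arm, 0.80 for the 3 genes from farnesyl diphosphate to lanosterol and -0.07 for the 9 genes after lanosterol, of which 7 were negative. Here and below, p-values come from the quasi-likelihood test of edgeR, adjusted by the Benjamini-Hochberg method over all genes tested, and a gene is called where its adjusted p is under 0.05.

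**Figure D1:**
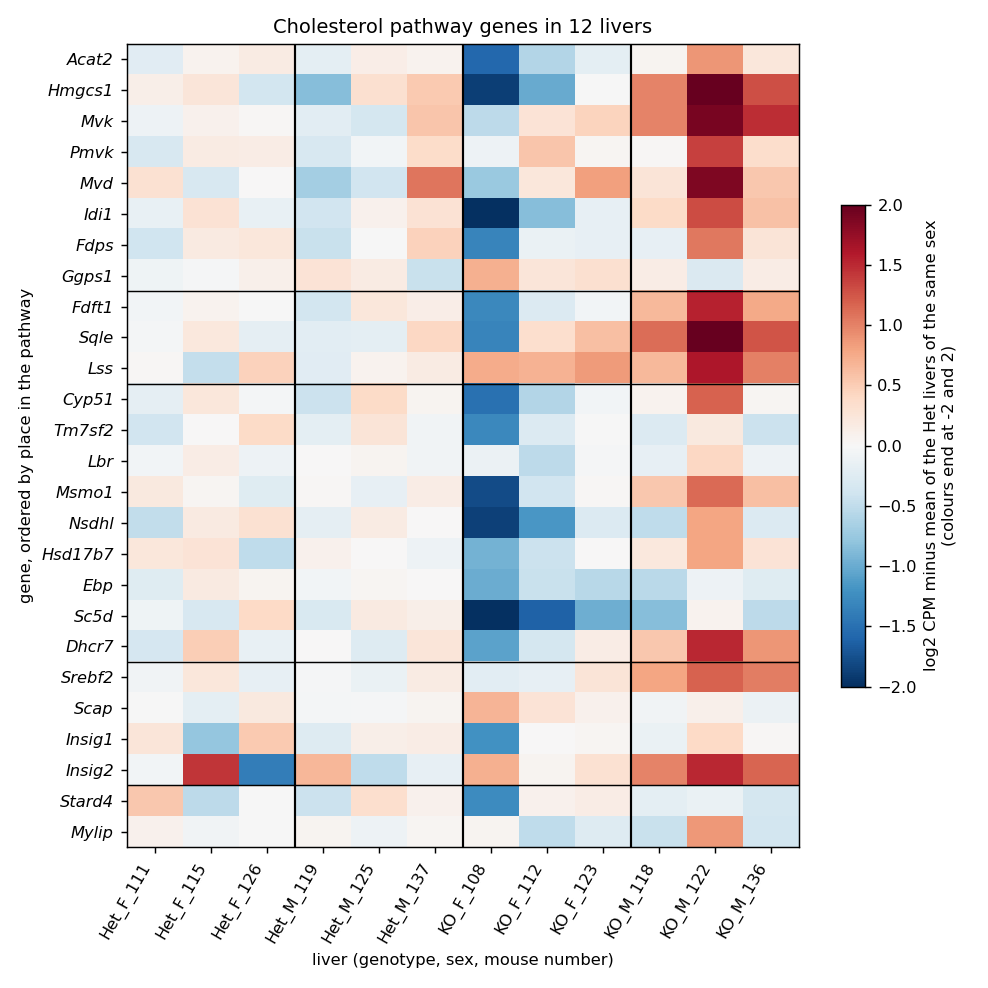
Rows are the 26 genes in pathway order and columns the 12 livers, and colour gives log2 CPM minus the mean of the Het livers of the same sex. KO_F_108 is blue in most rows and KO_M_122 red in most rows, Sc5d is blue in all KO livers but KO_M_122, and Lss is red in all 6 KO livers.

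Lss closes oxidosqualene into lanosterol, the first sterol of the pathway, and lies on chromosome 10 from 76367298 to 76392976 (build GRCm39). Its levels were 65.3, 46.3 and 89.0 CPM in Het females, 51.6, 63.1 and 67.5 CPM in Het males, 107.8, 105 and 116 CPM in KO females and 94.4, 186 and 122.005 CPM in KO males. Every KO liver lay above every Het liver, in both sexes. Lss was 1.90-fold higher in KO livers (log2 fold change 0.93, SE 0.183, adjusted p = 0.00508). It was the only one of the 26 genes whose 6 KO and 6 Het livers did not overlap. Among all genes tested, 4.57% were separated in this way with KO higher and 4.98% with KO lower.

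Mvk phosphorylates mevalonate and lies on chromosome 5 from 114582267 to 114601803. Its levels were 16.6, 18.9 and 18.2 CPM in Het females, 10.1, 9.18 and 17.2 CPM in Het males, 12.5, 21.6 and 24.5 CPM in KO females and 23.3, 43.7 and 32.5 CPM in KO males. The 3 KO males were above all Het livers, whereas KO_F_108 was below the 3 Het females. Over both sexes Mvk was 1.72-fold higher (log2 fold change 0.78, SE 0.213, adjusted p = 0.0237). The log2 fold change was 0.76, 0.72 and 0.70 without Het_F_111, Het_M_119 and Het_M_125 in turn, and the call was lost in each case. The adjusted p was 0.0523 without Het_F_111, 0.0533 without Het_M_119 and 0.0567 without Het_M_125.

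Srebf2 encodes SREBP2 and lies on chromosome 15 from 82031382 to 82093201, with the microRNA gene Mir33 inside it on the same strand. Its levels were 54.3, 66.9 and 50.6 CPM in Het females, 35.9, 33.6 and 41.1 CPM in Het males, 48.9, 51.0 and 68.1 CPM in KO females and 63.2, 83.7 and 74.8 CPM in KO males. The 3 KO males lay above the 3 Het males without overlap, Het males were the lowest group, and KO and Het females overlapped. Over both sexes Srebf2 was 1.40-fold higher (log2 fold change 0.48, SE 0.118, adjusted p = 0.0136). In a model without the interaction of genotype and sex its log2 fold change was 0.48 with an adjusted p of 0.0857. For Mvk these were 0.78 and 0.0769, so the fold changes stayed and the calls were lost.

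Sc5d, the sterol C5-desaturase, and Ebp, the sterol isomerase that acts just before it, work on neighbouring steps near the end of the pathway. Sc5d lies on chromosome 9 from 42162891 to 42175605, and Ebp on chromosome X from 8050773 to 8059795. Sc5d had 396, 335 and 554 CPM in Het females, 299, 417 and 399 CPM in Het males, 70.1, 137.2 and 213 CPM in KO females and 204, 386 and 255 CPM in KO males. Each KO female lay below every Het liver, while the KO male KO_M_122 was within the Het range. Sc5d in KO livers was 0.498 times the Het level (log2 fold change -1.01, SE 0.260, adjusted p = 0.0195). Ebp had 129, 173 and 159.8 CPM in Het females, 141, 149 and 147 CPM in Het males, 77.2, 113 and 104 CPM in KO females and 100.1, 136.2 and 122.9 CPM in KO males. KO_M_122 and Het_F_111 were the livers that overlapped, and Ebp in KO livers was 0.723 times the Het level (log2 fold change -0.47, SE 0.121, adjusted p = 0.0184). Without KO_F_108 and KO_M_122 together, 7 genes were called over both sexes (4 higher, 3 lower), the 5 above with Sqle higher and Mylip lower. In that setting 9 of 26 genes (34.6%) had an unadjusted p under 0.05, beside 32.0% of all genes tested. Lss, Sc5d and Ebp were called over both sexes in each of the 26 alternative settings tried, which include leaving out each mouse in turn.

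**Figure D2:**
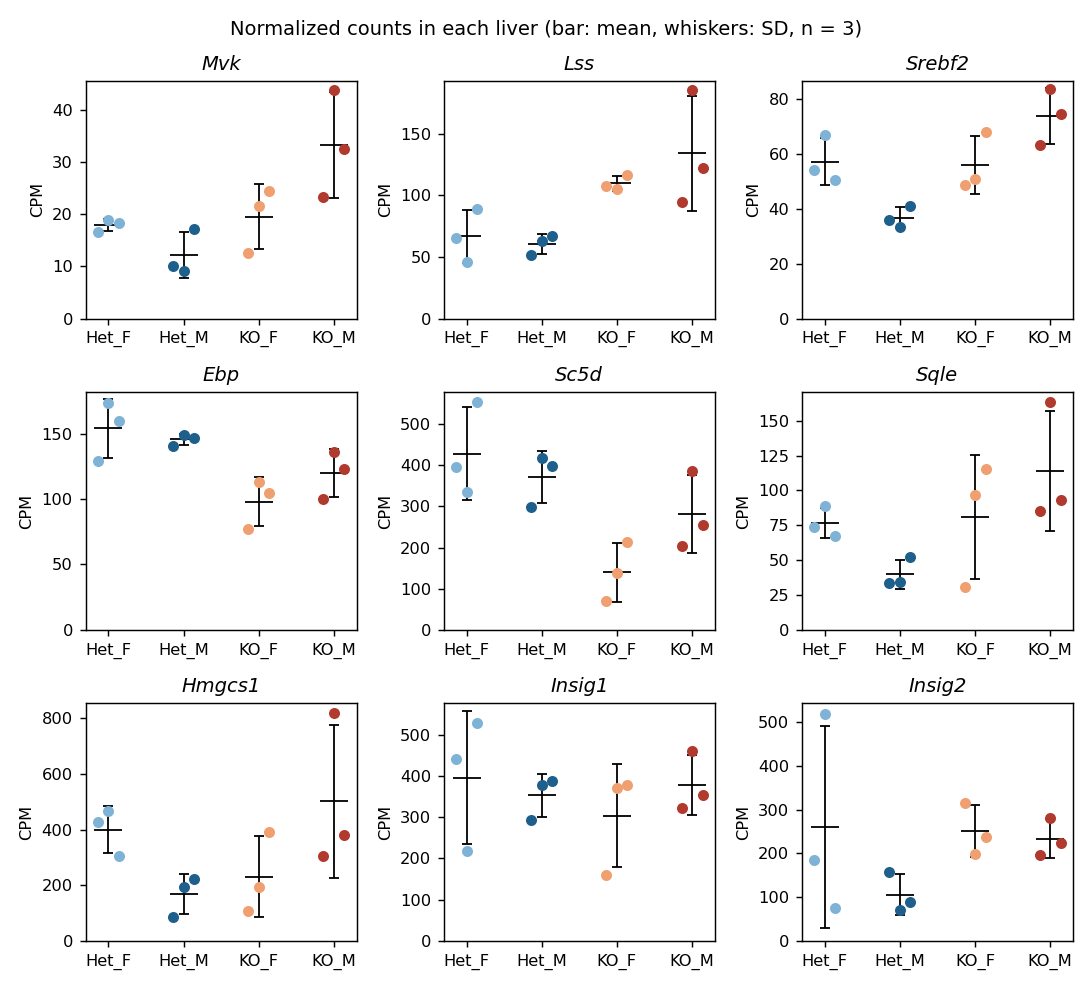
CPM on the vertical axis, from 0, for 9 of the genes, with 1 point per liver, the mean as a bar and the SD as whiskers (n = 3 mice per group). All Lss points of the KO groups lie above the Het points, Sc5d is low in KO females, and the Hmgcs1 and Sqle values of KO females and KO males spread widely.

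In females, Sc5d and Ebp were lower in KO livers and no gene was called higher. Sc5d in KO females was 0.328 times the Het level (log2 fold change -1.61, SE 0.373, adjusted p = 0.0247), and Ebp 0.636 times (log2 fold change -0.65, SE 0.172, adjusted p = 0.0360). Among all genes tested, 4.93% were called higher and 4.9% lower. At an unadjusted p under 0.05, 2 genes were higher (Lss and Scap) and 4 lower (Acat2, Nsdhl, Ebp and Sc5d), beside 14.1% and 14% of all genes tested. In either direction this was 23.1% of the 26 genes and 28.1% of all genes. DESeq2 called the same number higher (0) and lower (2) as edgeR, beside 8.51% and 7.72% of all genes. Of the 26 log2 fold changes, 19 were negative, with a median of -0.39 beside -0.01 over all genes tested, and all 9 genes after lanosterol were negative (median -0.54). The KO and Het females did not overlap in 2 genes with KO higher (Ggps1 and Lss) and in 3 with KO lower (Idi1, Ebp and Sc5d), beside 15.1% and 15.3% of all genes tested.

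Both calls in females were lost under several settings in which the direction stayed. Over the settings that lost the call, the log2 fold change ranged from -1.66 to -1.29 for Sc5d and from -0.75 to -0.49 for Ebp. Without KO_F_108, it was -1.29 for Sc5d (adjusted p = 0.0536) and -0.51 for Ebp (adjusted p = 0.105). Without KO_F_108 and KO_M_122 together, Sc5d alone was called in females. The Sc5d call was also lost without Het_F_111 (0.0521), Het_F_126 (0.0703) or KO_F_112 (0.0711). The Ebp call was lost without Het_F_115 (0.0988), Het_F_126 (0.0865), KO_F_112 (0.0507) or the male Het_M_137 (0.0504), values in parentheses being adjusted p from the same edgeR test. It was also lost with length-scaled estimated counts (0.0636) and scaled estimated counts (0.0715).

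In males the direction was mostly the other way. Mvk, Lss and Srebf2 were higher in KO males, and no gene was called lower. Srebf2 was 2.003-fold higher (log2 fold change 1.002, SE 0.168, adjusted p = 0.00594), Mvk 2.71-fold (log2 fold change 1.44, SE 0.305, adjusted p = 0.0189) and Lss 2.21-fold (log2 fold change 1.14, SE 0.260, adjusted p = 0.0244). Among all genes tested, 4.01% were called higher and 2.9% lower. At an unadjusted p under 0.05, 7 genes were higher and 0 lower, beside 12.7% and 10.7% of all genes tested. In either direction this was 26.9% of the 26 genes and 23.4% of all genes. DESeq2 called 7 higher and 0 lower, beside 6.48% and 5.11% of all genes. Of the 26 log2 fold changes 20 were positive, with a median of 0.47 beside 0.01 over all genes tested. KO and Het males did not overlap in 11 genes with KO higher (Hmgcs1, Mvk, Idi1, Fdft1, Sqle, Lss, Msmo1, Hsd17b7, Dhcr7, Srebf2 and Insig2) and in 1 with KO lower (Ebp), beside 16.4% and 15.7% of all genes tested.

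Several enzymes had large fold changes in males that did not pass the test. Hmgcs1 makes HMG-CoA, the substrate of the step that yields mevalonate. It had 428, 467 and 305 CPM in Het females, 85.8, 194 and 222 CPM in Het males, 106, 195 and 390.4 CPM in KO females and 306, 817 and 379.5 CPM in KO males. KO males lay above Het males without overlap, and KO females were on average below Het females. In males the log2 fold change was 1.58 (SE 0.528, adjusted p = 0.103) and in females -0.79 (SE 0.519, adjusted p = 0.348). Squalene epoxidase (Sqle) had 74.0, 88.5 and 67.5 CPM in Het females, 33.6, 33.99 and 51.96 CPM in Het males, 30.5, 96.5 and 115.5 CPM in KO females and 84.9, 164 and 93.2 CPM in KO males. In males its log2 fold change was 1.52 (SE 0.430, adjusted p = 0.0625), and in females KO_F_108 lay below and the other 2 KO livers above all Het females. For squalene synthase (Fdft1) the male log2 fold change was 1.02 (adjusted p = 0.0752), and for Dhcr7, the reductase of the closing step of the Kandutsch-Russell branch, it was 1.02 (adjusted p = 0.0964).

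In males, Srebf2 was called in each of the alternative settings, whereas Mvk and Lss lost the call in some. Where the call was lost, the log2 fold change ranged from 1.2004 to 1.32 for Mvk and from 0.84 to 1.22 for Lss, with the lowest Lss value without KO_M_122. The adjusted p of Mvk was 0.0702 without Het_M_119, 0.0805 without Het_M_125 and 0.0592 without KO_M_122. That of Lss was 0.0847 without Het_M_119, 0.0793 without Het_M_125, 0.0577 without Het_M_137 and 0.0735 without KO_M_122. Lss was also not called with length-scaled (0.0695) or scaled estimated counts (0.0861), nor by limma on log2(TPM + 1) (0.0634) or log2(TPM + 0.1) (0.0565), values being adjusted p. Without KO_F_108 and KO_M_122 together, 4 genes were called in males, namely Mvk, Fdft1, Sqle and Srebf2. In that setting 11 of 26 genes (42.3%) had an unadjusted p under 0.05, beside 23.6% of all genes tested. Without KO_F_108 alone, which enters through the shared estimate of the spread, 6 genes were called higher in males, namely Mvk, Fdft1, Sqle, Lss, Msmo1 and Srebf2. The unadjusted count was then 9 of 26 (34.6%), beside 25.8% of all genes tested, where the share of all genes was 23.4% with all livers. KO_F_108 too was picked for its values in these genes, so the same limit holds.

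**Figure D3:**
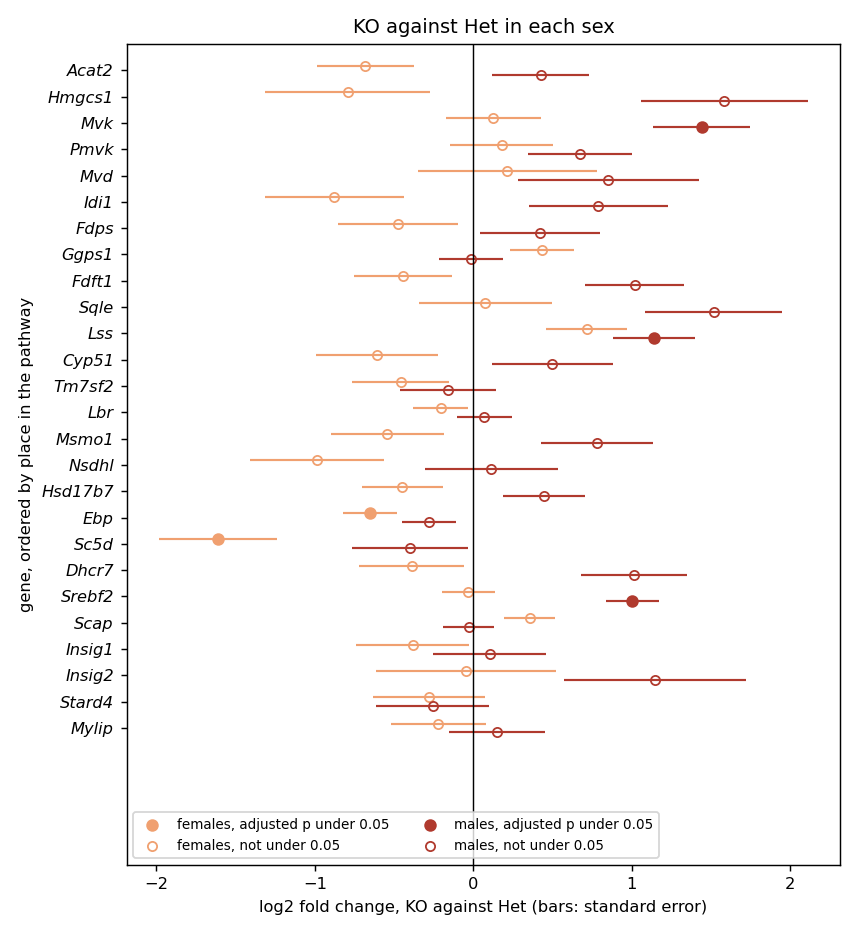
Effect of the KO genotype (log2 fold change relative to Het) for each gene, with its standard error as a bar, in females (orange) and males (red), and filled points where the adjusted p was under 0.05. The male point lies to the right of the female point in 24 of the 26 genes, the exceptions being Ggps1 and Scap.

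The difference of the KO effect between the sexes was tested directly. The effect was more positive in males in 24 of 26 genes, with a median difference of 0.96 on the log2 scale beside 0.02 over all genes tested. No gene passed the adjusted threshold in edgeR, beside 0.0465% of all genes tested, and DESeq2 called 1 (Srebf2), beside 0.821%. At an unadjusted p under 0.05 there were 11 of 26 genes (42.3%), beside 8.98% of all genes tested. The smallest adjusted p was that of Srebf2 (difference 1.03, SE 0.235, adjusted p = 0.224), followed by Fdft1 (difference 1.46, SE 0.438, adjusted p = 0.429). Hmgcs1 had the largest difference (2.38, SE 0.739, adjusted p = 0.453). The genes share the same 12 livers and are not independent of each other.

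The median difference was smaller without the 2 livers that stood apart, KO_F_108 and KO_M_122. They were picked after the values of these genes were seen. KO_F_108 was the lowest KO female and KO_M_122 the highest KO male in most enzymes. A smaller difference without them therefore follows from the choice and tests nothing. Without KO_F_108, the unadjusted count was 9 of 26 (34.6%), beside 7.01% of all genes tested, and the median difference 0.74. Without KO_M_122 these were 5 of 26 (19.2%), beside 7.53%, and 0.61. Without both, 19 of 26 differences were positive, the median was 0.30 and 7 of 26 genes (26.9%) had an unadjusted p under 0.05, beside 6.73% of all genes tested. Without KO_F_123, edgeR called Srebf2. Scaling by library size alone moved the median difference of all genes to 0.15, and the same 24 genes were positive.

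Between the sexes, averaged over genotype, none of the 26 genes was called by edgeR, beside 0.935% of all genes tested. None had an unadjusted p under 0.05, beside 13.5%, and DESeq2 called none, beside 3.73%. The largest log2 difference of males against females was that of Insig2 (-0.70, SE 0.403, adjusted p = 0.475). Without KO_M_122, Mylip was called. The contrast averages Het and KO livers, and the KO effect of many of these genes had opposite signs in the 2 sexes. Among Het livers, every male lay below every female in the summed level of the 20 enzymes (1399.7 to 1937 against 2216 to 2481 CPM). So it was for Hmgcs1, Sqle, Idi1 and Srebf2, whereas Lss and Insig1 overlapped. These genes are examples. How many of the 26 genes and what share of all genes were separated in this way was not counted, so the separation cannot be called particular to these genes. The sums of KO males and KO females overlapped. The sexes were not tested within 1 genotype.

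Livers of the same group differed more in these genes than in most genes at or above the level of the lowest of them. The median SD of log2 CPM within groups was 0.458 over the 26 genes and 0.209 over the 8462 tested genes with a mean of at least that of the lowest of them (7.74 CPM). Of the 26 genes, 24 were above that median and 21 above the upper quartile of 0.314. The SD was largest for Insig2 (0.793), Mvd, the mevalonate diphosphate decarboxylase (0.766), and Hmgcs1 (0.722). It was smallest for Scap (0.192), Srebf2 (0.209), Ebp (0.214) and Lbr (0.217).

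In some livers of both genotypes most of the 20 synthesis enzymes lay at the same end of their group. KO_F_108 had the lowest level of the 3 KO females in 17 of the 20 enzymes, beside 38.1% of all genes tested, and KO_M_122 the highest of the 3 KO males in 19, beside 37.2%. KO_F_108 was the lowest of all 12 livers in 13 enzymes, beside 17.5% of all genes tested, and KO_M_122 the highest of all 12 in 14, beside 6.71%. KO_F_123 was the highest KO female in 16 enzymes, beside 34.7% of all genes tested, and KO_M_118 the lowest KO male in 17, beside 27.7%. Among Het livers, Het_M_119 was lowest of its group in 14 enzymes and highest in 2, beside 31.5% of all genes tested at the lowest place. Het_F_111 was lowest in 11 and highest in 2 (30.3% of all genes lowest). Het_F_115 was highest in 11 and lowest in 3 (33.8% of all genes highest). More mixed were KO_F_112 (highest in 3 and lowest in 3), Het_F_126 (highest in 7 and lowest in 6) and Het_M_125 (highest in 8 and lowest in 3). The median deviation of the 20 enzymes from the mean of their group was -0.77 on the log2 scale in KO_F_108, 0.54 in KO_F_123, 0.53 in KO_M_122 and -0.37 in KO_M_118. In Het livers it ranged from -0.21 (Het_M_119) to 0.16 (Het_F_115), and over all genes tested it lay near 0 in every liver. The KO livers thus differed among themselves more than the Het livers did in this measure, which was not tested.

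The summed level of the 20 enzymes shows the same livers at the ends. It was 2216, 2481 and 2377 CPM in Het females, 1399.7, 1841 and 1937 CPM in Het males, 876, 1578 and 2120.3 CPM in KO females, and 1849.5, 3672 and 2157 CPM in KO males. All 3 KO females were below all 3 Het females, KO_F_123 being close to Het_F_111. Abundant enzymes weigh most in this sum, among them Sc5d, with 213 CPM in KO_F_123 and 396 CPM in Het_F_111. Of the single enzymes, Idi1, Ebp and Sc5d were separated in this direction in females, and Ggps1 and Lss in the opposite direction. The separation of the sums is therefore not a drop of each enzyme. The KO males overlapped the Het males, with KO_M_122 above all other livers.

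**Figure D4:**
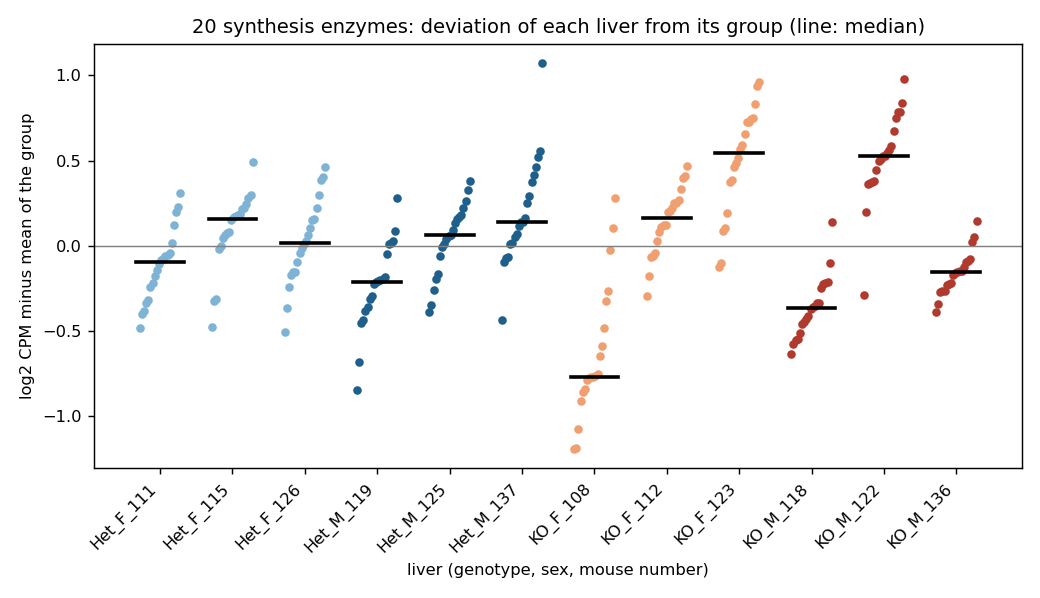
Each point is 1 of the 20 synthesis enzymes, placed by its log2 CPM minus the mean of the liver's own group of 3, with the median of each liver as a black line. KO_F_108 lies lowest with a median of -0.77, and KO_F_123 and KO_M_122 lie highest with 0.54 and 0.53.

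The remaining genes of the mevalonate arm did not pass the test over both sexes. Acat2, the cytosolic thiolase that opens the pathway, had 52.2 to 79.6 CPM in Het and 24.0 to 110.8 CPM in KO livers. Pmvk, the phosphomevalonate kinase, had 19.5 to 36.6 CPM in Het and 24.7 to 62.8 CPM in KO livers, and Mvd 5.22 to 17.7 and 7.15 to 30.8 CPM. Idi1, the isomerase of the isoprenoid unit, had 152 to 208 CPM in Het females and 34.4 to 151 CPM in KO females, which did not overlap, and 81.5 to 131 CPM in Het males and 139 to 263 CPM in KO males, which did not overlap in the opposite direction. Its difference between the sexes was 1.67 (SE 0.619, adjusted p = 0.505). Fdps had 109 to 205 CPM in Het and 64.9 to 308 CPM in KO livers. Ggps1, which makes the geranylgeranyl diphosphate used on proteins, had 7.90 to 13.0 and 8.78 to 15.8 CPM. Ggps1 was called higher over both sexes with length-scaled and scaled estimated counts and by limma on log2(TPM + 1) and log2(TPM + 0.1), and its effective length relative to its mean was 1.11 in Het and 0.887 in KO livers.

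After lanosterol, Cyp51, the lanosterol demethylase, had 88.0 to 193 CPM in Het and 59.1 to 269.6 CPM in KO livers (log2 fold change -0.61 in females and 0.50 in males, neither called). Msmo1, the C4-methyl oxidase, had 107 to 183 and 46.0 to 265 CPM (-0.54 and 0.78). Nsdhl, the C4-decarboxylating dehydrogenase, had 29.4 to 50.7 and 11.2 to 65.5 CPM (-0.99 and 0.11). For Hsd17b7, the ketoreductase of the same complex, the ranges were 63.6 to 136.5 and 58.6 to 118.3 CPM (-0.45 and 0.45). In each of these 4 the sign was negative in females and positive in males. Tm7sf2 and Lbr both encode sterol C14-reductases, Lbr being also a protein of the inner nuclear membrane. Tm7sf2 overlaps Vps51 on the same strand, and reads of the overlap could be split between them. The log2 ratio of Tm7sf2 to Lbr was 2.39 ± 0.376 (SD, n = 6) in Het and 2.13 ± 0.561 in KO livers, and the difference of -0.26 gave p = 0.365 in a two-sided exact permutation test of genotypes within each sex (adjusted p = 0.365 over the 2 ratios tested).

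Of the genes that control SREBP2 processing, Scap, the escort, had 103 to 136.3 CPM in Het and 117 to 189.7 CPM in KO livers (log2 fold change 0.16, adjusted p = 0.331). Insig1, which encodes a retention protein and is itself induced by SREBPs, had 439.9, 218 and 529 CPM in Het females, 293, 379 and 387 CPM in Het males, 159, 372 and 379 CPM in KO females and 321, 460.4 and 354 CPM in KO males. KO_F_108 was the lowest liver, and the groups otherwise overlapped (log2 fold change -0.14, adjusted p = 0.730). Insig2 had 186, 518 and 74.2 CPM in Het females, 158, 69.7 and 88.9 CPM in Het males, 316, 199.6 and 238 CPM in KO females and 197, 282 and 223 CPM in KO males. The 3 Het females lay far apart, so the female comparison was imprecise (SE 0.567), while the KO males lay above the Het males without overlap (log2 fold change 1.15, adjusted p = 0.262).

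Within each liver the log2 ratio of Insig2 to Insig1 was -1.24, 1.25 and -2.83 in Het females, -0.89, -2.44 and -2.12 in Het males, 0.99, -0.90 and -0.67 in KO females and -0.71, -0.71 and -0.67 in KO males. Het_F_115 and KO_F_108 were the livers with more Insig2 than Insig1. The mean was -1.38 ± 1.48 (SD, n = 6) in Het and -0.44 ± 0.705 (n = 6) in KO livers. The difference of 0.93 gave p = 0.21 in the same exact permutation test, whose smallest possible p is 0.005 (adjusted p = 0.365 over 2 ratios). Each of the 12 livers was left out in turn. Without Het_F_115, the Het liver with the highest ratio, the difference was 1.46 with an exact permutation p of 0.005. That p was not adjusted for the other livers left out. A larger difference follows from leaving out the highest Het ratio, so it adds no support to the result with all livers.

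Stard4, a cytosolic sterol carrier, had 77.7 to 168 CPM in Het livers and, in KO livers, 46.4 CPM in KO_F_108 and 104 to 122.9 CPM in the other 5 (log2 fold change -0.27, adjusted p = 0.479). Mylip encodes a ubiquitin ligase that sends lipoprotein receptors for degradation, and its level was low, with 5.95 to 9.96 CPM in Het and 4.68 to 11.8 CPM in KO livers (log2 fold change -0.04, adjusted p = 0.927). Neither gene was called in females or males.

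Other genes of the pathway were taken from lists. Among 6 tested further genes of sterol synthesis (of 7 listed), 1 was higher and 2 lower over both sexes. Por, the electron donor of Cyp51 and of Sqle, rose (log2 fold change 0.92, SE 0.236, adjusted p = 0.0183). Por had 203 to 526 CPM in Het and 391 to 1375 CPM in KO livers, and it was highest in KO_F_108 (1375 CPM), the liver with the lowest level of most enzymes. Aacs, which makes acetoacetyl-CoA from ketone bodies in the cytosol, fell in KO livers to 11.5 to 36.4 CPM from 48.4 to 129 CPM without overlap (log2 fold change -1.93, SE 0.324, adjusted p = 0.00307). Cyb5a, an electron carrier of Sc5d, also fell (log2 fold change -0.37, SE 0.112, adjusted p = 0.0362).

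Of 14 genes of SREBP processing and sterol sensing, 0 were higher and 3 lower. These were Srebf1, the gene of SREBP1, which mainly drives fatty acid synthesis (log2 fold change -1.18, SE 0.237, adjusted p = 0.00593), Erlin2, which takes part in sterol-dependent protein breakdown (log2 fold change -0.40, adjusted p = 0.00637), and Nfyb, a subunit of NF-Y (log2 fold change -0.55, adjusted p = 0.0252). Srebf1 had 184 to 442 CPM in Het and 78.8 to 276 CPM in KO livers, so Srebf2 and Srebf1 were called in opposite directions. At an unadjusted p under 0.05 there were 6 of these 14 genes in either direction (42.9%), beside 35.5% of all genes tested. Of 13 genes of isoprenoid use, Rce1, a protease of prenylated proteins, was higher (log2 fold change 0.43, adjusted p = 0.0303) and Pdss2, of the ubiquinone side chain, lower (log2 fold change -0.45, adjusted p = 0.00780).

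Of 13 genes of sterol efflux, storage and LXR, 3 were higher and 2 lower. Abcg5, a subunit of the exporter of sterol into bile, rose (log2 fold change 0.68, SE 0.168, adjusted p = 0.0146), with 107 to 161 CPM in KO and 46.6 to 106 CPM in Het livers, and so did Npc2, of lysosomal cholesterol release (log2 fold change 0.41, adjusted p = 0.00760), and Soat1, which esterifies cholesterol (log2 fold change 0.50, adjusted p = 0.0439). Nr1h3, which encodes LXRα, fell (log2 fold change -0.50, SE 0.0818, adjusted p = 0.00194), and so did Lpcat3, an LXR target that remodels phospholipids (log2 fold change -0.41, adjusted p = 0.0319). Of 6 genes of lipoprotein uptake, Scarb1, the HDL receptor, was higher (log2 fold change 0.28, adjusted p = 0.0361) and Lrpap1, a chaperone of lipoprotein receptors, lower (log2 fold change -0.34, adjusted p = 0.0220). Of 7 genes of intracellular sterol transport, Gramd1b, which carries cholesterol from the plasma membrane to the endoplasmic reticulum, was higher (log2 fold change 1.06, SE 0.173, adjusted p = 0.00187), at 4.79 to 10.5 CPM in KO and 3.138 to 4.44 CPM in Het livers without overlap, and none was lower. The median log2 fold changes of the 6 lists, in the order given, were -0.25, -0.25, -0.01, 0.21, -0.21 and -0.04. In the same order, 66.7%, 42.9%, 15.4%, 76.9%, 66.7% and 28.6% of their tested genes had an unadjusted p under 0.05, beside 35.5% of all genes tested. At the adjusted threshold, 11.4% of all genes tested were called higher and 10.3% lower. The lists are short and were chosen with earlier results of these data known.

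Markers of other liver cells also moved with genotype. In bulk tissue, fewer cells of a type and less RNA per cell cannot be told apart. Beside the counts below, 11.4% of all genes tested were called higher and 10.3% lower. Of 7 Kupffer cell and macrophage genes, 3 were higher in KO livers (log2 fold change 2.97, adjusted p = 0.00688 for Marco, 0.86 for Vsig4 and 0.78 for Cd5l), with sums of 161 to 502 CPM in KO and 119.6 to 315 CPM in Het livers. The others were not called, with Timd4 alone negative (-0.06), and in females 0 of the 7 were called. Of 6 stellate cell genes, 2 were lower (-1.90 for Lrat and -1.76 for Reln), with sums of 117.7 to 256 CPM in KO and 239 to 439 CPM in Het livers. The other stellate genes were not called, with Col1a1 alone positive (0.27). Of 6 endothelial genes, 2 were lower (Clec4g -0.84, Kdr -0.996), with sums of 124.8 to 221 and 162 to 307 CPM. The other endothelial genes were not called, with Lyve1 alone positive (0.04). The hepatocyte gene Ttr was lower (-0.82), 1 of 6. The rest of that list was not called, with Alb (0.56), Cps1 (0.38) and Tat (0.92) positive and Hnf4a (-0.07) and Tdo2 (-0.16) negative. Its median was 0.15, and its summed level was 66531 to 123768 CPM in KO and 50277 to 72639.5 CPM in Het livers. Alas2 was lower (-1.43; erythroid sums of 79.1 to 193 CPM in KO and 109.7 to 490.1 CPM in Het livers) and S100a8 higher (1.16; neutrophil sums at most 2.79 CPM). The acinar gene Cela2a was higher (2.06) at no more than 1.59 CPM, and the other 3 acinar markers were at 0 in all livers. No cholangiocyte (5), lymphocyte (6) or adipocyte (1 of 4 tested) marker was called by edgeR over both sexes, and none of these had an unadjusted p under 0.05 there. In males the adipocyte marker Cfd was called lower (log2 fold change -2.86, adjusted p = 0.0340), and in females the lymphocyte marker Cd79a had an unadjusted p of 0.0364 (adjusted p = 0.147). Cfd and Cd79a were named after their values were seen. The part of these shifts in the results for the cholesterol genes was not tested.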

How the data were processed

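Livers of 12 mice were profiled by RNA sequencing of TRIzol total RNA with ribosomal RNA depletion (stranded total RNA kit). As deposited, the tables hold estimated counts per gene, which the authors made with STAR 2.7.9a and Salmon 1.10.1 on GRCm39 (mm39) with GENCODE M34. The authors' TPM values were deposited beside them, and length-scaled and scaled estimated counts served as alternatives. Of the values, 12% were not whole, and they were rounded. No column belonged to another sample.

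Samples were grouped by genotype and sex from the sample names, with 3 mice per group. Nothing shows that replicates are other than separate mice, and p-values measure the spread between them. Genes with at least 5 reads at the median library size in at least 3 livers were kept, 19355 in all. Library sizes were scaled by TMM, and edgeR 4.0.16 (R 4.3.3) fitted 1 model of 4 group means with a prior count of 2, robust estimation and the quasi-likelihood test. Contrasts were KO against Het over both sexes and in each sex, the difference between the sexes, and males against females. Standard errors were derived from the test statistic. The log2 ratios of Insig2 to Insig1 and of Tm7sf2 to Lbr within livers were compared by exact permutation. The alternatives were other count tables, filters and scalings, DESeq2 1.42.0, limma 3.58.1 on log2(TPM + 1) and log2(TPM + 0.1), fits of 1 sex, a model without the interaction and leaving out each mouse. The procedure was tested on simulated data. Fold changes of low genes are shrunk by the prior count.

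Positions come from GENCODE M39 on GRCm39, and promoters from RefSeq on GRCm38.p6, a different build that was used for sequence only. The 26 genes and the lists of pathway and marker genes were chosen with earlier results of these data known. All 26 genes, Xpa and Ercc8 are named, and of the other lists the genes called in KO against Het over both sexes. Some further genes of cholesterol synthesis and uptake are not reported here.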

Additional observations from a re-analysis of the deposited data

Results flagged for a closer look

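Values of each of the 26 genes were examined in the 6 livers of each genotype for a single liver far from the rest on the log2 CPM scale, in 52 groups, of which chance alone would mark about 1 in 20. In KO livers Insig1 had 159 CPM in KO_F_108, where the next lowest KO liver had 321 CPM, a gap of 0.660 of the whole range on the log2 scale, past Dixon's 95% critical value for 6 values. On the CPM scale that gap was 0.536 of the range and not past it. In KO livers Stard4 had 46.4 CPM in KO_F_108, where the next lowest had 104 CPM, a gap of 0.827 of the log2 range and 0.751 of the CPM range, past the critical value on both. On the CPM scale, 5 of the 52 groups were past it, Stard4, Lss and Scap in KO livers and Dhcr7 and Insig2 in Het livers, and on the log2 scale 2 were. Both values far from the rest on the log2 scale came from the liver that was also lowest of the KO females in 17 of the 20 synthesis enzymes.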

How the results depend on the processing

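No paired analysis was possible because the mouse numbers are unique to each mouse and shared by no groups. Over both sexes 5 genes were called, 3 in the model without the interaction of genotype and sex (fewer terms, Lss, Ebp and Sc5d), and 4 to 6 when each mouse was left out in turn. In females 2 genes were called, 1 with no filter on low counts (Ebp), 0 in the fit of the 6 female livers alone, 1 without KO_F_108 and KO_M_122 together (Sc5d; this setting was chosen after seeing the data), and 0 to 3 when each mouse was left out. In males 3 were called, 7 by DESeq2 (beside 11.6% of all genes in either direction), 5 in the fit of the 6 male livers alone, and 1 to 6 when each mouse was left out. For settings other than the main fit and DESeq2, here and above, the share of all genes called at the adjusted threshold is not given. A rise or fall of the calls in those settings can therefore not be read as one of these genes alone. With length-scaled or scaled estimated counts Ebp lost its call in females, where Ggps1 gained one, and Lss in males, and Lss also under limma on both TPM forms. The difference between the sexes had 0 calls, 1 by DESeq2 (Srebf2) and 0 to 1 when each mouse was left out. Between the sexes 0 were called, 1 without KO_F_108 and KO_M_122 together and 0 to 1 when each mouse was left out (Mylip in both). The Insig2 to Insig1 difference ranged from 0.644 to 1.46 when each mouse was left out and passed the threshold only without Het_F_115. The cause of these changes was not tested. Of the log2 fold changes of single genes under the alternatives, 2589 kept their direction and side of the threshold or moved by less than the spread between replicates, 32 lost a call, 29 gained one, 28 moved by more than that spread and 0 called values changed sign. The depth gave each of the 26 genes a mean of at least 7.74 CPM.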
